A study of Homo sapiens with 12 samples.

Results

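Polysomal RNA was compared with total RNA in HEK293 cells that overexpressed RBMX, to describe which classes of RNA carry more or fewer ribosomes. The comparison holds 6 of the 12 libraries of the study. These are 3 polysomal and 3 total libraries, and libraries of the same number were taken as 1 culture. HEK293 is a human embryonic kidney line. Its cells were transiently transfected with 2 µg of pCMV6-HIS-HA-RBMX, which drives tagged RBMX from a viral promoter, and the 6 control libraries come from cells given the mock empty vector. RBMX is an RNA-binding protein of the hnRNP family that takes part in splicing. The paper places it in both nucleus and cytoplasm, and a preliminary experiment there saw its cytoplasmic part mainly with polysomes. All cultures were treated with cycloheximide at 10 µg/ml, which stops elongating ribosomes on the messenger, and nuclei were spun out of the lysate. The lysate was separated on a sucrose gradient of 15 to 50%. Total RNA was a pool of 20% of every gradient fraction, so it is cytoplasmic RNA that also contains the polysomal part. Each library was prepared from 500 ng of RNA.

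A messenger read by many ribosomes sediments deep in a sucrose gradient, while free messengers and RNAs without a reading frame stay near the top. A ratio of polysomal to total RNA therefore describes how much of an RNA is in the heavy fractions relative to the average RNA, and not the rate of protein synthesis. Long reading frames have room for more ribosomes than short ones. Some classes are held out of polysomes by elements at their 5′ end. Ferritin messengers carry an iron-responsive element bound by iron regulatory proteins, and messengers for ribosomal proteins start with a terminal oligopyrimidine (TOP) tract that links their translation to growth signalling.

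Values are FPKM (fragments per kilobase of transcript, adjusted for library size), set on the log2(FPKM + 1) scale for testing, so changes of low genes are understated. Fold changes below are polysomal minus total on this scale, with their standard error, from limma with culture as a block (n = 3 cultures). A gene is called at an adjusted p up to 0.05 over the 14175 genes tested. Both fractions are scaled to their own library, so a loss of all messengers from polysomes would not be seen. Sequencing depth is unknown, as the values hold no counts.

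Polysomal replicate 2 of the RBMX cells stood apart before any gene was considered. The interquartile range of the log2 ratios was 0.421 in culture 2, against 0.187 in culture 1 and 0.205 in culture 3. In culture 2, 274 genes had a log2 ratio beyond 1 in either direction, against 42 and 67 in the other cultures. Its ratios also followed the GC content of the transcripts across genes (Spearman 0.435 in culture 2, -0.05 and 0.006 in cultures 1 and 3), where genes are not independent. In the control cultures these correlations were -0.0741, 0.247 and 0.684, so a relation to GC content was not particular to this library. Values without culture 2 are given beside most of the lists that follow. The neuronal and mesenchymal genes that HEK293 cells express were present in all 6 libraries, with NEFL at 40.9 to 50.4 FPKM and VIM at 486 to 576. Hepatocyte ALB, leukocyte PTPRC, erythroid HBB and melanocyte TYR were at 0.226 FPKM or less, while fibroblast COL1A1 was not absent, at 5.47 to 8.61.

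The calls went in 1 direction. Of 14175 genes, 488 fell in polysomal RNA (3.44%) and 0 rose in limma's test. At an unadjusted p under 0.05 there were 3798 genes (26.8%), of which 1550 were higher (10.9%) and 2248 lower (15.9%). All 488 were lower in 3 of 3 cultures, and in 462 the polysomal and total values did not overlap. Their fold changes ran from -2.73 to -0.31, with a median of -0.57. The test kept all 488 without culture 2 and then called 1511 genes lower (10.7%) and 573 higher (4.04%). When polysomal replicate 2 alone was left out, with no pairing, 347 genes were called lower and 4 higher, and 285 of the 488 were among the 347. With the 6 control libraries added to the fit to pool the spread, 1330 were lower (9.38%) and 423 higher (2.98%), and 486 of the 488 were among the former. When the 501 small RNA genes that passed the level filter were kept in the fit, 3 genes were called lower and 1 higher. Of the 488, 0 were among them, while their fold changes do not depend on the other genes in the fit.

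Noncoding genes took a large share of the calls. Of 776 long noncoding genes tested 204 fell, with a median fold change over the class of -0.21. They made up 41.8% of the calls and 5.47% of the genes tested. Of 12966 protein-coding genes 237 fell, with a class median of 0.01, and of 344 pseudogenes 42 fell, with a median of -0.11. Reads of a pseudogene cannot be told apart from those of its parent gene where the sequences are alike. When the fit was restricted to protein-coding genes, 64 of the 237 were called.

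**Figure D1:**
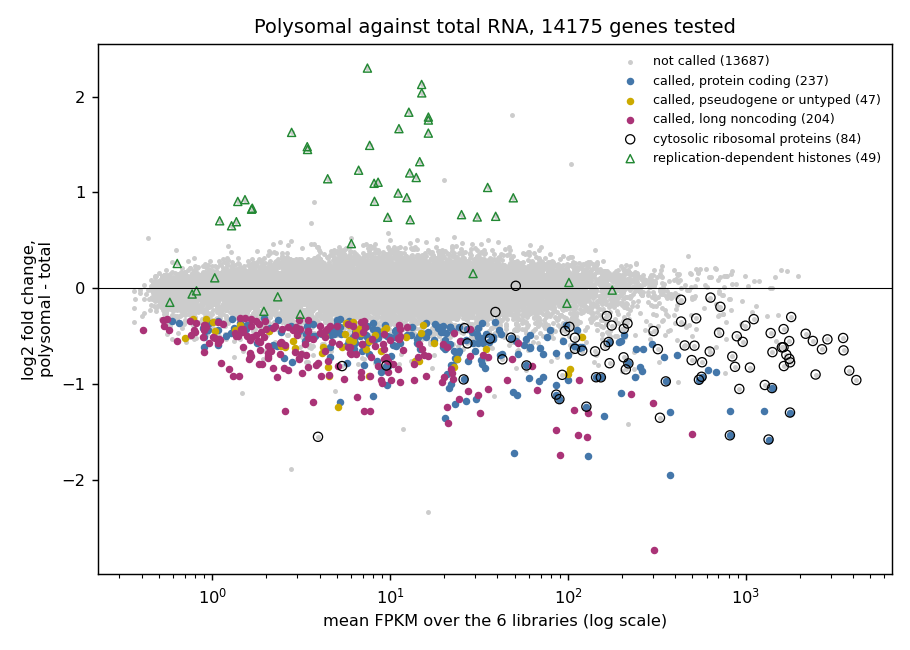
Each point is 1 of 14175 genes, with its mean FPKM over the 6 libraries of RBMX cells on a log axis and its log2 fold change of polysomal minus total RNA. The 488 genes called lower are coloured by type and 0 genes are called higher. Open circles are 84 ribosomal protein genes, nearly all below 0, and triangles are 49 histone genes, many of them above 0 and none called.

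The messengers of the iron store were the protein-coding ones that fell most. FTL, the light chain of ferritin, was at 524, 641 and 627 FPKM in total RNA of cultures 1 to 3 and at 164, 149 and 146 in polysomal RNA. Mean FPKM was 3.91 times higher in total RNA, and the fold change was -1.96 ± 0.12 (adjusted p = 0.0179). FTH1, the heavy chain, was at 155, 207 and 240 FPKM in total and at 60.1, 61.5 and 52.4 in polysomal RNA, a fold change of -1.75 ± 0.16 (adjusted p = 0.0211). Neither gene had overlapping groups, and the polysomal value of culture 2 was the lowest in neither. SLC40A1, the iron exporter ferroportin, fell by 0.80 ± 0.10 on the log2 scale (adjusted p = 0.0259), from 8.80, 9.62 and 9.37 to 5.65, 4.17 and 4.92 FPKM. In the list of 7 messengers with a known iron-responsive element these 3 fell (42.9%, against 3.44% of all genes). The median of the list was -0.07. The hypoxia factor EPAS1 (0.09), the iron transporter SLC11A2 (-0.07) and the transferrin receptor TFRC (0.01) were not called. In TFRC and SLC11A2 the element lies at the 3′ end.

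The element is a hairpin whose loop starts with the letters CAGTG. Windows of 4 messengers with the element at the 5′ end are shown with the loop CAGTGN in capitals, 5′ to 3′, in GENCODE transcripts, because 3 of them fell and EPAS1 was not called. Coordinates are on GRCh38, while the submitters' notes name hg19 for the files. FTH1 lies at chr11:61967573-61967602 on the minus strand, FTL at chr19:48965335-48965364 on the plus strand, EPAS1 at chr2:46297479-46297508 on the plus strand and SLC40A1 at chr2:189580660-189580689 on the minus strand. These 4 windows are in the 5′ UTR of exon 1.
FTH1: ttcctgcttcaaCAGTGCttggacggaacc
FTL: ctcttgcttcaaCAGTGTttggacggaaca
SLC40A1: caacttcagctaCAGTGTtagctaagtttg
EPAS1: tacaatcctcggCAGTGTcctgagactgta
The 2 ferritin messengers share a run around the loop, tgcttcaaCAGTGNttggacggaac, read off both sequences after they were seen. It spans 25 bases, and N marks the one at which they differ. Among the first 300 bases of 12946 coding transcripts 2 hold this run on the sense strand, those of FTH1 and FTL. A looser pattern that overlaps it, a C and any 5 bases before CAGTGN, was in 10.2% of the 12946, and their median fold change was 0.01.

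Messengers for the cytosolic ribosome were lower in polysomal RNA nearly without exception. Of 84 ribosomal protein genes tested, 18 fell (21.4%, against 3.44% of all genes), 82 were lower in 3 of 3 cultures (27.5% of all genes) and 77 had groups that did not overlap (16.4% of all genes). The median was -0.65, with -0.38, -0.96 and -0.59 in cultures 1, 2 and 3, against medians of 0.01, -0.03 and 0.03 over all genes. Their summed level was 82051, 86736 and 96741 FPKM in total RNA and 60151, 43055 and 63019 FPKM in polysomal RNA. The ratio lay farthest from 0 in culture 2 for 78 of the 84. Without culture 2 the median was -0.48, and 58 of 84 fell (against 10.7% of all genes). The paralogs RPL36AL and RPL7L1 were the 2 that were not lower in every culture. Small-subunit genes had a median of -0.76 (n = 32) and large-subunit genes, stalk proteins included, one of -0.58 (n = 50).

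RPS12, a small-subunit protein, was at 1099, 1193 and 1315 FPKM in total and at 511, 309 and 445 in polysomal RNA, a fold change of -1.54 ± 0.17 (adjusted p = 0.023). RPS29, of the same subunit, changed by -1.58 ± 0.23 (adjusted p = 0.0348), from 1808, 2030 and 2120 to 833, 423 and 822 FPKM. The polysomal values lay below all total values in both, and the lowest was that of culture 2. RPL41, whose reading frame of 25 codons is the shortest of the list, was at 166, 181 and 187 FPKM in total and at 79.5, 67.2 and 78.6 in polysomal RNA (-1.24 ± 0.09, adjusted p = 0.0179). RPSA, which is also known as a laminin receptor, fell by 1.11 ± 0.14 on the log2 scale (adjusted p = 0.0259), and its pseudogenes share its sequence. RPLP0, the base of the ribosomal stalk, fell by 0.79 ± 0.09 (adjusted p = 0.0224). The 3 most abundant, RPL37A (-0.96, adjusted p = 0.0862), RPL27 (-0.86, 0.127) and RPL38 (-0.65, 0.131), were lower in 3 of 3 cultures but not called, and quantile normalization, which forces all libraries to 1 distribution, took RPL38 to 0.06.

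All 21 of the other TOP messengers tested had a fold change below 0 (-0.04 at the highest), but few were called. TPT1, the translationally controlled tumour protein, was at 206, 229 and 250 FPKM in total and at 101, 71.6 and 101 in polysomal RNA, with no overlap (-1.33 ± 0.13, adjusted p = 0.0216). PABPC1, the cytoplasmic poly(A)-binding protein, fell by 0.63 ± 0.10 on the log2 scale (adjusted p = 0.0402), and EEF1G, a subunit of the elongation factor 1 complex, by 0.58 ± 0.10 (adjusted p = 0.0498). These 3 of 21 fell (14.3%, against 3.44% of all genes), 14 of 21 were lower in 3 of 3 cultures (66.7%, against 27.5%), and the median was -0.33. Without culture 2 the median was -0.23 and 10 of 21 fell (against 10.7% of all genes). In the 12-library fit 10 fell (against 9.38% of all genes), and in control cells 14 fell (against 5.52%). Elongation factors EEF1A1 (-0.50, adjusted p = 0.0698) and EEF2 (-0.12, 0.507), the ribosomal scaffold GNB2L1 (-0.28, 0.194) and NACA (-0.37, 0.174), which guides nascent chains, were not called. Of these, EEF1A1, EEF2 and GNB2L1 were called lower in control cells, and NACA was not. Quantile normalization turned EEF2, GNB2L1 and NACA above 0. YBX1, an abundant messenger-binding protein outside the list, fell by 0.70 ± 0.10 (adjusted p = 0.0341), from 459, 492 and 582 to 301, 325 and 312 FPKM. Translation initiation factors as a class, by contrast, had a median of 0.01 with 0 of 31 called in limma. At an unadjusted p under 0.05, 7 were higher and 3 lower (against 10.9% and 15.9% of all genes). The abundant EIF5A (0.13), EIF3K (0.03) and EIF4A1 (0.02) lay near 0.

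Annotated starts were searched for a TOP tract, taken as a C at the first transcribed base followed by at least 4 more C or T. RefSeq starts on GRCh38.p14 were matched for 10652 protein-coding genes tested. The tract was found in 43 of 67 ribosomal protein genes (64.2%), 13 of 15 other TOP genes (86.7%) and 5.31% of all 10652. Among ribosomal protein genes the median was -0.69 with a tract and -0.59 without. Among other TOP genes it was -0.28 with a tract and -0.52 in the few without. The following 30 bases, from 5 before to 25 from the start, are on the sense strand, 5′ to 3′, with the tract in capitals. They show 3 ribosomal protein messengers that fell and hold a tract, RPS29, which fell by the most of its list and holds none at this start, TPT1, which fell, EEF2, which was not called, YBX1, which fell without a tract, and GAPDH as a glycolytic messenger with neither. RPS12 is at chr6:132814564-132814593, RPL41 at chr12:56116628-56116657, RPSA at chr3:39406715-39406744, YBX1 at chr1:42682413-42682442 and GAPDH at chr12:6535259-6535288, all on the plus strand. RPS29 at chr14:49598686-49598715, TPT1 at chr13:45341159-45341188 and EEF2 at chr19:3985439-3985468 are on the minus strand.
RPS12: gaggcCTCTTTCCCTgccgccgccgagtcg
RPL41: cctttCTCTCggccttagcgccattttttt
RPSA: cctgtCTTTTCCgtgctacctgcagagggg
RPS29: gcagctggcagcggtggttgtttctgttcg
TPT1: tcggcCTTTTCCgcccgctcccccctcccc
EEF2: gcgttCTCTTCCgccgtcgtcgccgccatc
YBX1: ccgccattctcgctagttcgatcggtagcg
GAPDH: tccctgtccggatgctgcgcctgcggtaga
Outside both lists, 510 genes held such a tract. Their median was -0.01 against 0.01 for genes without, and 1.96% against 1.67% were called lower. Tracts of 7 or more gave a median of -0.01 in 264 genes. The annotated start is 1 base of a range of starts, so a missing tract does not describe the messenger in these cells.

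**Figure D2:**
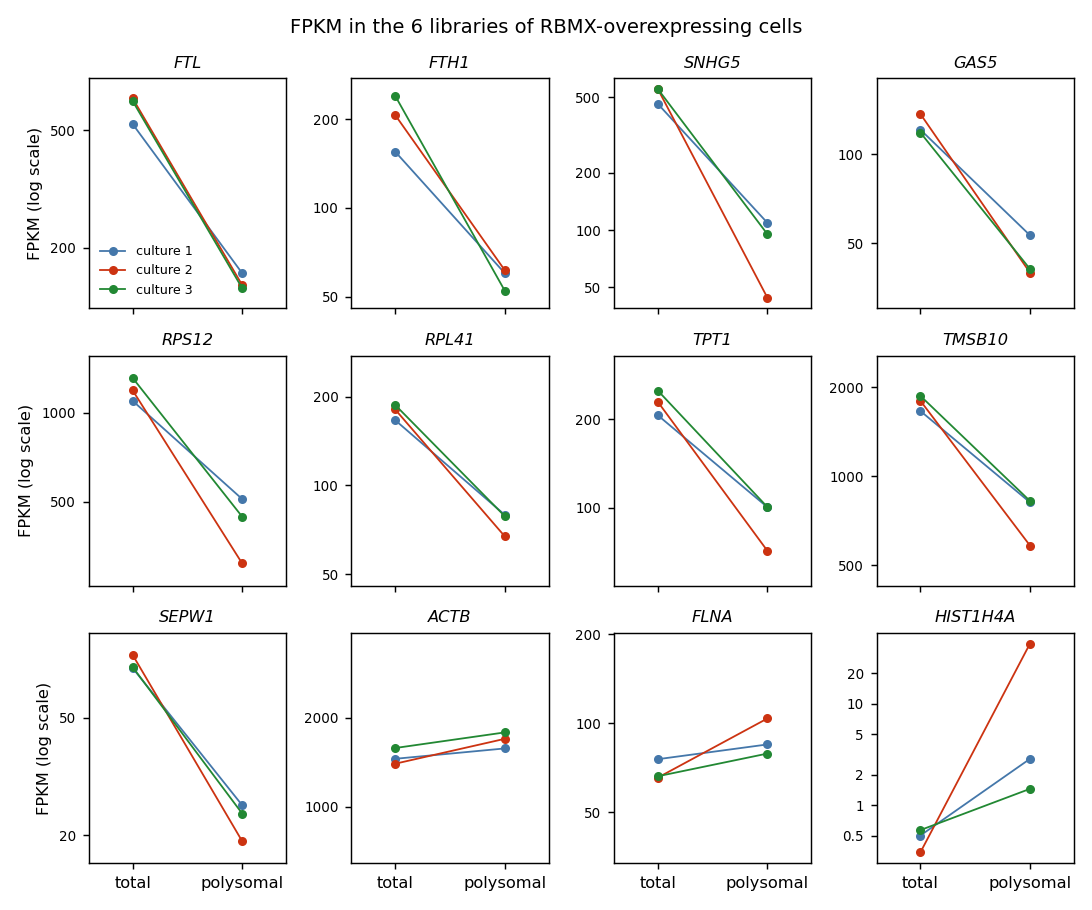
FPKM on log axes in total and polysomal RNA of RBMX cells for 12 genes, with a line joining the libraries of each of the 3 cultures. The 2 ferritin genes, 2 snoRNA host genes, 2 ribosomal protein genes, TPT1, TMSB10 and SEPW1 are lower in polysomal RNA in every culture, ACTB and FLNA lie above by less, and HIST1H4A reaches 38.9 in polysomal replicate 2.

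The noncoding hosts of small nucleolar RNAs (snoRNAs) had the lowest median of the lists. These genes carry snoRNAs in their introns, and many of their spliced RNAs have a TOP start and no long reading frame. Of 22 tested 20 fell (90.9%, against 3.44% of all genes), and all 22 were lower in 3 of 3 cultures (27.5% of all genes). The median was -1.02, with -0.90, -1.18 and -0.90 in cultures 1 to 3. Their summed level was 2281, 2673 and 2614 FPKM in total and 1039, 788 and 1066 in polysomal RNA. SNHG5 had the largest fold change of the 488 genes. It was at 461, 552 and 551 FPKM in total and at 109, 44.1 and 95.2 in polysomal RNA (-2.73 ± 0.29, adjusted p = 0.0216). GAS5 was at 121, 137 and 118 FPKM in total and at 53.1, 39.7 and 40.9 in polysomal RNA (-1.48 ± 0.12, adjusted p = 0.0179). Groups did not overlap in either. ZFAS1 (-1.74), SNHG6 (-1.55), SNHG9 (-1.53), SNHG15 (-1.30), SNHG1 (-1.27) and SNHG8 (-1.20) also fell. So did LRRC75A-AS1 (-1.52), a noncoding RNA that was counted in the intergenic and antisense list. Without culture 2 the median was -0.95 and 21 of 22 fell (against 10.7% of all genes). The 2 not called were SNHG7 (-0.40) and SNHG18 (-0.17). TAF1D, the protein-coding member, fell by 0.69 on the log2 scale.

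Other noncoding RNAs were less uniform. Of 399 intergenic and antisense genes 96 fell (24.1%, against 3.44% of all genes). In 3 of 3 cultures 260 were lower (65.2%, against 27.5%), and the median was -0.20. EPB41L4A-AS1 is in this list and in that of the snoRNA hosts. NEAT1, the scaffold of paraspeckles, fell by 0.95 ± 0.10 (adjusted p = 0.0216), from 183, 170 and 97.2 to 111, 76.6 and 47.8 FPKM. Its groups overlapped, since the total value of culture 3 was below the polysomal value of culture 1, while each culture fell. JPX, a regulatory RNA of the X inactivation centre, fell by 0.96 ± 0.13 (adjusted p = 0.0297). TUG1 (0.06) and LINC00493 (-0.26), which holds an annotated frame of 95 codons, were not called. PCNA-AS1 overlaps PCNA on the other strand, and its total value in culture 2 was 11.7 FPKM against 100 and 116, so its fold change of 1.30 (adjusted p = 0.298) rests on that library.

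The ratio was lower for short reading frames than for long ones. The median fold change was -0.32 for 206 genes under 100 codons, -0.16 for 100 to 149, -0.09 for 150 to 199, -0.05 for 200 to 299, -0.01 for 300 to 499, 0.03 for 500 to 999, 0.13 for 1000 to 1999 and 0.26 for 331 genes of 2000 or more. Of genes under 100 codons 29 fell (14.1%, against 3.44% of all genes). In 3 of 3 cultures 160 were lower (77.7%, against 27.5%). Of genes of 2000 codons or more limma called 0. At an unadjusted p under 0.05, 235 of them were higher and 2 lower (against 10.9% and 15.9% of all genes). In 3 of 3 cultures 300 were higher (against 29.1% of all genes). From the shortest to the longest class the median went from -0.16 to 0.14 in culture 1, from -0.60 to 0.46 in culture 2 and from -0.26 to 0.18 in culture 3, and from -0.21 to 0.16 without culture 2. The steps were not even, and in culture 1 the medians were -0.00071 for 200 to 299 codons and -0.0043 for 300 to 499. Spearman correlations with codon number across genes were 0.249, 0.509 and 0.294, which share the libraries and are given as a description. Of the 236 called genes with a coding length 35.6% had under 200 codons, against 12% of all genes with one. Within the ribosomal protein list the correlation was 0.325.

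**Figure D3:**
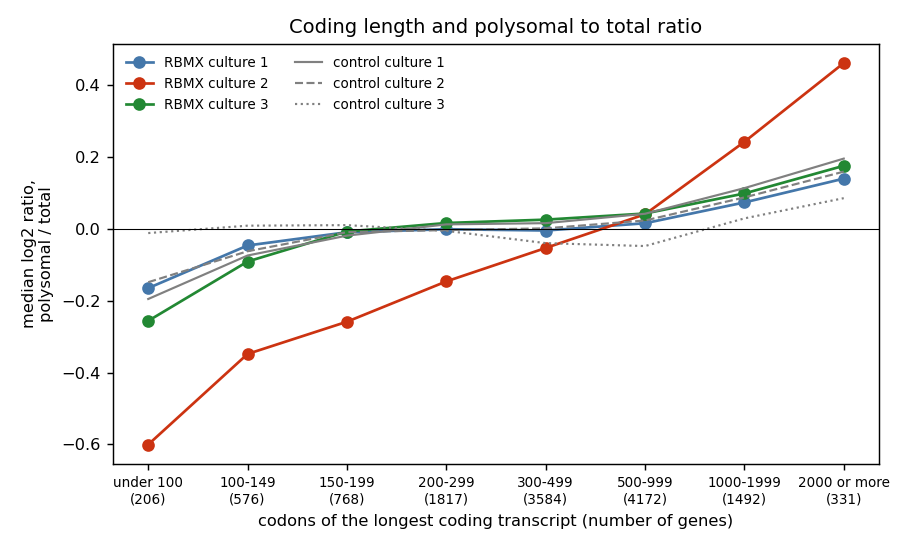
Median log2 ratio of polysomal to total RNA (y axis) by number of codons of the longest coding transcript (x axis, with the number of genes). Coloured lines are the 3 RBMX cultures and grey lines the 3 control cultures. Each RBMX line is below 0 in the shortest class and above 0 in the longest, and that of culture 2 spans the widest range of the RBMX lines, from -0.60 to 0.46.

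Several very short messengers outside the ribosome fell. The thymosins TMSB10 and TMSB4X, which bind monomeric actin, have 44 codons each. TMSB10 was at 1664, 1802 and 1873 FPKM in total and at 816, 582 and 825 in polysomal RNA (-1.28 ± 0.15, adjusted p = 0.0239). TMSB4X was at 1070, 1153 and 1219 FPKM in total and at 528, 370 and 531 in polysomal RNA (-1.28 ± 0.15, adjusted p = 0.023). The longer members of the same cytoskeletal list, ACTG1 (0.18) and ACTB (0.19), were not called. In that list 12 of 18 were higher in 3 of 3 cultures (66.7%, against 29.1% of all genes), and the median was 0.15. ACTB was at 1452, 1398 and 1580 FPKM in total and at 1575, 1697 and 1785 in polysomal RNA, so its groups overlapped. SEPW1, a selenoprotein of 88 codons, was at 73.8, 81.7 and 74.3 FPKM in total and at 25.3, 19.1 and 23.7 in polysomal RNA (-1.72 ± 0.12, adjusted p = 0.0179). The antioxidant GPX1 fell by 0.55 ± 0.08 (adjusted p = 0.0337). These 2 of 15 selenoproteins fell (13.3%, against 3.44% of all genes). GPX4 (-0.38, adjusted p = 0.0779) and SEP15 (-0.48, 0.152) were not called. The list median was -0.15, with -0.07, -0.44 and -0.08 in cultures 1 to 3. Without culture 2 it was -0.01, and 6 of 15 fell (against 10.7% of all genes).

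For genes of oxidative phosphorylation the median was below 0 with culture 2 and near 0 without it. Over 80 genes it was -0.13, with 0.06, -0.38 and -0.01 in cultures 1 to 3 and 0.03 without culture 2. UQCRH, the hinge protein of complex III with 91 codons (-0.85 ± 0.13, adjusted p = 0.0365), and USMG5, an ATP synthase subunit of 58 codons (-1.29 ± 0.22, adjusted p = 0.0468), fell. ATP5E (-0.89), COX7C (-0.35) and COX6B1 (-0.29), each under 100 codons, were not called. Mitochondrial ribosomal proteins had medians of -0.11 over 3 cultures and 0.01 without culture 2. In limma's test 0 of 82 were called, with 9 lower at an unadjusted p under 0.05 (against 15.9% of all genes). In the 12-library fit 1 fell (against 9.38% of all genes). The 3 most abundant were MRPL51 (-0.23), MRPL33 (-0.77) and MRPL12 (0.07).

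No list had members called higher. Messengers of very large proteins had a median above 0 in each culture. Of 29 genes for giant cytoskeletal, motor and scaffold proteins 28 were higher in 3 of 3 cultures (29.1% of all genes). In 25 the groups did not overlap, with polysomal values higher (15.1% of all genes). At an unadjusted p under 0.05, 26 of the 29 were higher (against 10.9% of all genes). The median was 0.36, with 0.15, 0.66 and 0.25 in cultures 1 to 3 and 0.21 without culture 2. The exception to the direction was VPS13B, a lipid transfer protein (0.14). FLNA, the actin cross-linker filamin A, was at 75.5, 65.4 and 66.1 FPKM in total and at 84.7, 104 and 78.9 in polysomal RNA (0.36 ± 0.11, adjusted p = 0.142). The non-muscle myosin heavy chains MYH9 (0.45 ± 0.14, adjusted p = 0.138) and MYH10 (0.41 ± 0.10, 0.103) were also above in every culture. In the fit of all 12 libraries 18 of the 29 rose (against 2.98% of all genes), and without culture 2 17 of them did (against 4.04%). Among extracellular matrix and adhesion genes 19 of 21 were higher in 3 of 3 cultures (90.5%, against 29.1% of all genes). Their median was 0.26. Fibronectin FN1 (0.28), agrin AGRN (0.35) and the integrin ITGB1 (0.19) were not called. Without culture 2 the median of this list was 0.17 and 9 of the 21 rose (against 4.04% of all genes). Of the 573 genes that rose without culture 2, 522 were also higher in culture 2. Of the 547 with a coding length 48.8% had 1000 codons or more, against 14.1% of all genes with one.

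Replication-dependent histone messengers, which end in a stem-loop in place of a poly(A) tail, had the highest list median. The size of this median rested on 1 library. The median over 49 genes was 0.91, with -0.05 in culture 1, 2.63 in culture 2 and 0.16 in culture 3. In limma's test 0 of 49 were called, with 6 higher at an unadjusted p under 0.05 (against 10.9% of all genes). In 3 of 3 cultures 20 were higher (40.8%, against 29.1% of all genes). In 14 the groups did not overlap, with polysomal values higher (28.6%, against 15.1%). Their summed level was 602, 600 and 562 FPKM in total RNA and 545, 2304 and 566 in polysomal RNA. The library of polysomal replicate 2 alone was high. HIST1H4A was at 0.502, 0.342 and 0.567 FPKM in total and at 2.85, 38.9 and 1.45 in polysomal RNA (2.30 ± 0.80, adjusted p = 0.158). HIST1H1E (2.13, adjusted p = 0.182), HIST1H3B (2.04, 0.163), HIST1H2AH (1.84, 0.201) and HIST2H2BF (1.79, 0.18) were also highest in polysomal replicate 2. Log2 ratios exceeded 1 for 38 of the 49 in culture 2, for 1 in culture 1 and for 2 in culture 3. Those 38 were 63.3% of the 60 genes with such a ratio in culture 2. Without culture 2 the median was 0.10, with 11 higher and 5 lower calls (against 4.04% and 10.7% of all genes). The 3 most abundant, HIST1H2BK (-0.02), HIST1H1C (0.06) and HIST3H2A (-0.16), were near 0.

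Further RNAs without a regular poly(A) tail stood out in the same library. RMRP, the RNA of RNase MRP, was at 6.93, 7.57 and 12.2 FPKM in total and at 13.6, 241 and 10.1 in polysomal RNA. RPPH1, the RNA of RNase P, was at 13.5, 11.4 and 16.7 in total and at 8.49, 128 and 5.01 in polysomal RNA. MALAT1, a nuclear RNA with a processed 3′ end, was at 11.6, 8.65 and 8.81 in total and at 19.0, 64.2 and 8.64 in polysomal RNA. The value of polysomal replicate 2 was the highest of the 6 in all 3 genes, and among the remaining values the groups overlapped for RMRP and MALAT1, while the other polysomal values of RPPH1 lay below its total values. Their fold changes of 1.81, 0.40 and 1.13 (adjusted p = 0.268, 0.797 and 0.224) were not called, nor was that of telomerase RNA TERC (0.28). In the control cells RMRP lay at 126, 142 and 259 FPKM in total and at 5.34 to 28.1 in polysomal RNA, and RPPH1 at 46.0, 140 and 153 in total and at 4.80 to 15.7 in polysomal RNA. The values of RBMX polysomal replicate 2 thus lay within the range of the control total libraries for both genes, and those of the RBMX total libraries below it. How the RNA of this library was selected was not tested.

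**Figure D4:**
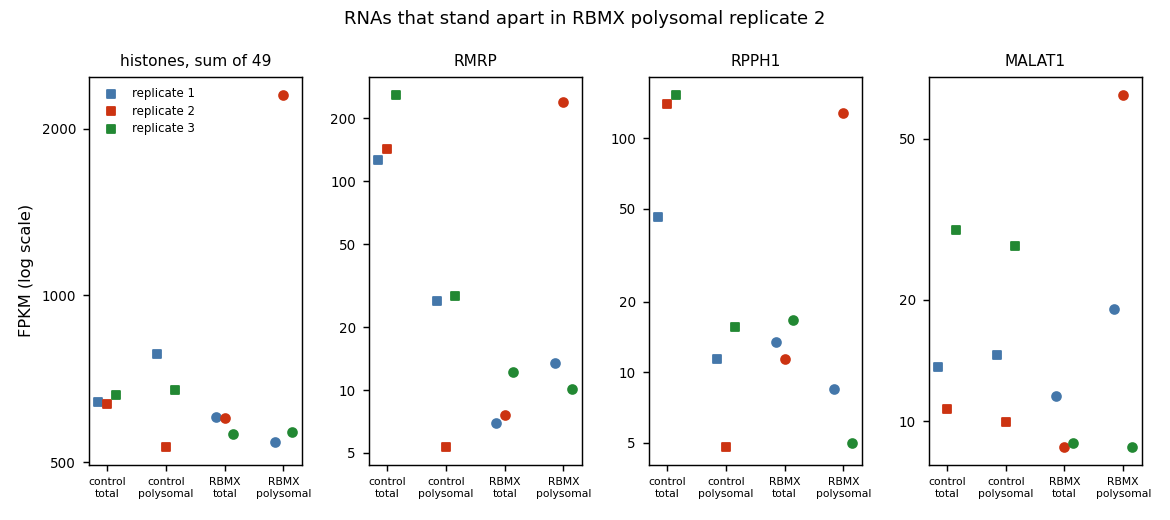
FPKM on log axes in all 12 libraries for the sum of 49 histone genes and for RMRP, RPPH1 and MALAT1, with colours for replicate number, squares for control and circles for RBMX cells. The RBMX polysomal replicate 2 is at 2304, 241, 128 and 64.2 FPKM, above the other 5 libraries of RBMX cells in each panel.

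Medians of the lists of regulatory genes were slightly below 0. Of 458 zinc finger transcription factors 17 fell (3.71%, near the 3.44% of all genes). In 3 of 3 cultures 214 were lower (46.7%, against 27.5%) and 56 higher (12.2%, against 29.1%), with a median of -0.09. Without culture 2 the median was -0.07, with 77 lower and 5 higher calls (against 10.7% and 4.04% of all genes). In the 12-library fit 68 fell and 5 rose (against 9.38% and 2.98% of all genes). The 3 most abundant, ZNF711 (-0.18), ZNF146 (-0.04) and ZNF207 (-0.01), were not called. Of 36 HOX cluster genes, which pattern the body axis, 1 fell (2.78%, near the 3.44% of all genes). In 3 of 3 cultures 17 were lower (47.2%, against 27.5%), and the median was -0.08. The one called was HOXB2, at 50.8, 54.8 and 53.1 FPKM in total and at 34.6, 31.8 and 30.7 in polysomal RNA, with no overlap (-0.69 ± 0.07, adjusted p = 0.0224). HOXA9 (-0.43, adjusted p = 0.0777) and HOXA10 (-0.14) did not pass. Without culture 2, 7 of the 36 fell (against 10.7% of all genes). Immediate early genes had a median of -0.14, with 13 of 22 lower in 3 of 3 cultures (59.1%, against 27.5% of all genes). In limma's test 0 were called, with 7 lower at an unadjusted p under 0.05 (against 15.9% of all genes). ATF3 (-0.38, adjusted p = 0.0712), JUN (-0.09) and IER2 (-0.09) are members of this list. In the 12-library fit 4 of the 22 fell (against 9.38% of all genes), and without culture 2 7 did (against 10.7%).

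Messengers of the integrated stress response carry upstream reading frames that limit initiation at the main one in unstressed cells. Of 16 listed 1 fell (6.25%, against 3.44% of all genes). This was DDIT3, which encodes the stress factor CHOP. It was at 53.2, 57.9 and 43.7 FPKM in total and at 34.1, 30.9 and 28.7 in polysomal RNA (-0.70 ± 0.08, adjusted p = 0.0237). ATF4, the main effector, was at 559, 602 and 585 FPKM in total and at 405, 384 and 442 in polysomal RNA (-0.50 ± 0.10, adjusted p = 0.0633), without overlap and without a call. The polyamine enzyme ODC1 (-0.14) and the phosphatase subunit PPP1R15A (-0.09) were closer to 0, and the list median was -0.11.

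Housekeeping lists held few calls. Of 17 glycolytic enzymes 11 were higher in 3 of 3 cultures (64.7%, against 29.1% of all genes), with medians of 0.11, 0.09 and 0.17 in cultures 1 to 3. In limma's test 0 were called, with 3 higher and 1 lower at an unadjusted p under 0.05 (against 10.9% and 15.9% of all genes). Median fold changes were 0.13 for these enzymes, 0.09 for 36 endoplasmic reticulum genes, 0.08 for 18 genes of cholesterol synthesis and 0.05 for 21 cytosolic chaperones. GAPDH (0.08), ENO1 (0.13) and LDHB (0.04) in glycolysis, CALR (0.20) in the endoplasmic reticulum, FDPS (0.01) and IDI1 (-0.12) in sterol synthesis and CCT7 (0.08), HSP90AA1 (0.19) and HSPA8 (-0.02) among chaperones were not called. The translocon subunits SEC61G (-0.98, adjusted p = 0.109) and SEC61B (-0.27) have 68 and 96 codons and were not called either. The small heat shock protein HSPB1 fell by 0.62 ± 0.07 (adjusted p = 0.024), from 67.9, 73.6 and 82.1 to 43.9, 51.4 and 48.9 FPKM. Medians of 0.01 or -0.01 were found for proteasome subunits, DNA replication, mitotic genes, aminoacyl-tRNA synthetases and splicing factors. In these 5 lists limma called 0 of 160 genes. At an unadjusted p under 0.05, 10 were higher and 11 lower (against 10.9% and 15.9% of all genes). Mitochondrially encoded messengers were not analysed here.

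**Figure D5:**
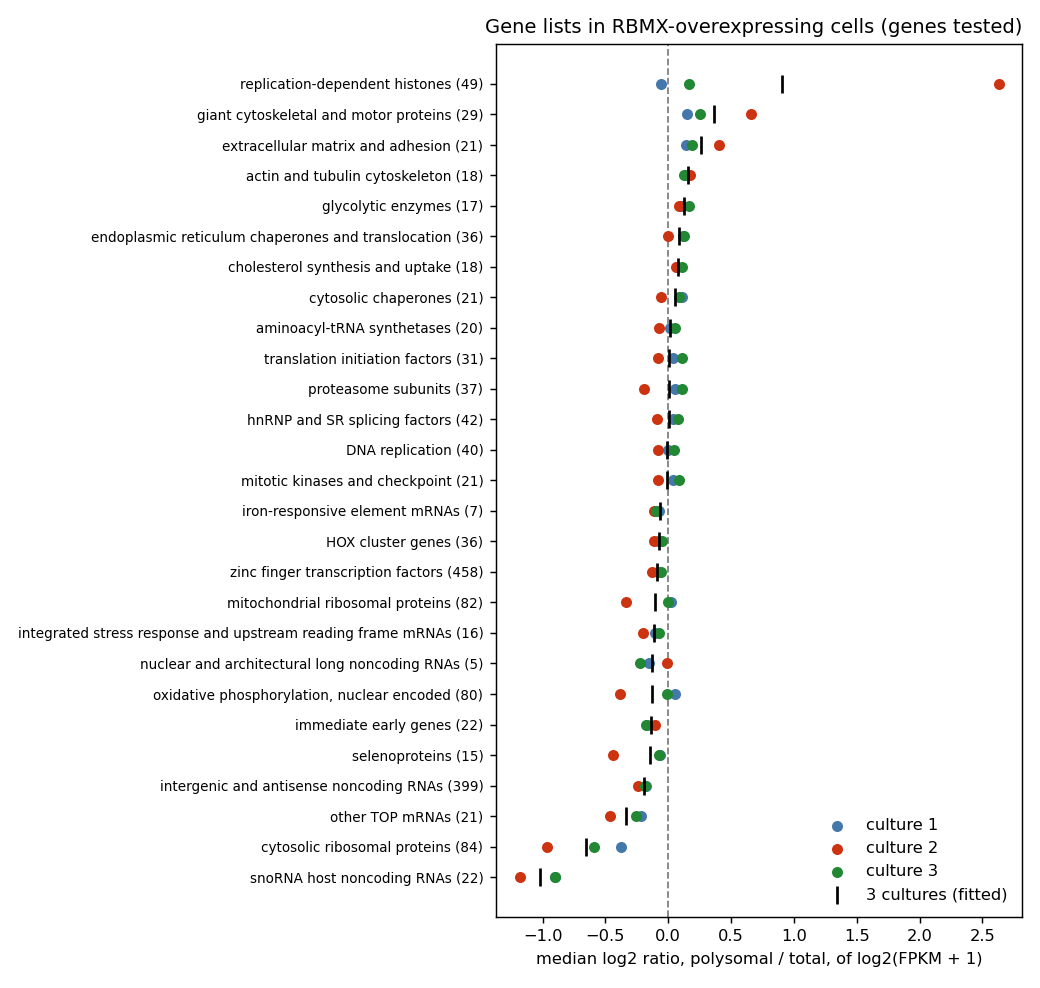
Median log2 ratio of polysomal to total RNA (x axis) for each gene list (y axis, number of genes tested in brackets) in the 3 RBMX cultures, shown as coloured points, with the fitted median as a bar and the median of all genes as a dashed line. Culture 2 lies farthest from 0 in the ribosomal protein list (-0.96) and the histone list (2.63), where the other cultures are at -0.05 and 0.16.

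RBMX itself was at 1731, 2073 and 1460 FPKM in total and at 1167, 1328 and 1072 in polysomal RNA of the transfected cells, without overlap (-0.55 ± 0.11, adjusted p = 0.0722). Control cells held 108 to 147 FPKM in total RNA and 87.4 to 148 in polysomal RNA, with a fold change of -0.10. FPKM does not separate the plasmid transcript from the endogenous one. The intronless paralog RBMXL1 (-0.60, adjusted p = 0.0511) shares sequence with RBMX, so its value is uncertain. HNRNPA2B1, another abundant hnRNP gene, was at 0.09.

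The direct test of the polysomal to total ratio between RBMX and control cells called 0 of 14175 genes in limma, with 345 at an unadjusted p under 0.05 (2.43%). With array weights it called 9 higher and 56 lower, and with small RNA genes kept 3 higher and 2 lower. For RBMX the difference was -0.46 ± 0.13 (adjusted p = 1). In control cells 782 genes fell (5.52%) and 164 rose (1.16%). Of the 488 genes lower in RBMX cells 486 had a fold change below 0 in control cells and 346 also fell there, which is 70.9% of the 488 and 44.2% of the 782. The list medians in RBMX and control cells were -0.65 and -0.61 for ribosomal proteins, -1.02 and -0.75 for snoRNA hosts and 0.36 and 0.22 for giant proteins. They were 0.91 and -0.01 for histones, 0.40 and -3.25 for RMRP, RPPH1 and TERC, -0.15 and -0.02 for selenoproteins, -0.13 and 0.03 for oxidative phosphorylation and -0.11 and 0.01 for mitochondrial ribosomal proteins. Differences between list medians were not tested. FTL was at -1.96 and -2.26 in the same order. TMSB10 was at -1.28 in RBMX cells and -0.66 in control cells, a difference that did not pass (adjusted p = 1).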

How the data were processed

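RNA of 12 HEK293 libraries was listed by gene, and the 6 of RBMX cells were compared here, grouped by the labels. The authors deposited FPKM values for 25268 gene symbols. Per the labels, their processing notes name CASAVA 1.8, TopHat2 2.0.13, Cufflinks 2.2.1, Cuffnorm and hg19, with no role given, and the paper's methods describe another route for counts. The annotation behind the FPKM is not given in the sources used here, nor is any further scaling between libraries. Cells were harvested after 48 h. FPKM sums in RBMX libraries ran from 999347 to 1543842, of which small RNA genes took 49.2 to 65.5%. FPKM values carry no depth, so the precision rests on the replicates.

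Tests used R 4.3.3 and limma 3.58.1 (lmFit, eBayes with intensity trend) on log2(FPKM + 1) for genes whose FPKM averaged 0.5 or more across 12 libraries, with Benjamini-Hochberg adjustment at 0.05. The 2042 small RNA genes listed were recognised by symbol and left out, because transcripts shorter than a fragment have unstable FPKM. Python 3.11.15 and matplotlib 3.10.9 served for descriptions and plots. Type and start sites came from RefSeq on GRCh38.p14 (14090 genes tested with a type) and coding length from the longest GENCODE v29 transcript (12946 genes), so the isoform used in these cells may be shorter.

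Per the study's methods total RNA was pooled from the fractions of the gradient, and libraries of 1 number were paired on that basis, although the labels mention separate dishes for the 2 extractions. Deviations of same-numbered libraries from the group means correlated with 0.231, 0.021 and 0.684 in cultures 1 to 3, across genes. The methods describe the replicates as biological, and p-values measure the spread between these 3. An exact test by changing the signs of 3 pairs could not reach p = 0.05 for 1 gene, nor could an unpaired permutation of 3 against 3.

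In simulated data for the RBMX comparison over 14175 genes with 200 changed, 94.6% of genes changed by 1 and 99.1% of those changed by 2 (log2) were recovered. The changed genes were drawn only from those with a mean log2(FPKM + 1) above 2, and all simulated cultures had the same spread. In the data the ratios of culture 2 spread more widely, so these shares do not give the recovery in the real libraries. Members and gene lists were chosen with earlier results of these data known. Named genes are, per direction, up to 10 called genes with the largest change in 3 of 3 cultures and a mean FPKM of at least 5 (with under 5 called, up to 5 uncalled ones without overlap), the 3 most abundant members of each list, and a fixed set. Members of lists with a median within 0.05 of 0 are given by counts. Some results covered by this rule are not reported here. Other genes were named after their values were seen. Alternatives covered pseudocount, filter, scaling, small RNAs, trend, block, weights and libraries. 2 were added after seeing the data: protein-coding genes only, and protein-coding list members only.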

Additional observations from a re-analysis of the deposited data

How the results depend on the processing

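All 488 genes called lower kept their direction under every alternative that tested them, but most alternatives could not have turned it. Each of these genes was lower in every culture, so leaving out or reweighting a culture keeps the sign, as does the pseudocount. The choice of genes, trend, block or added control libraries leaves the fold change as it was. Only rescaling, quantile normalization and leaving out polysomal replicate 2 alone could have turned a gene. The numbers called higher and lower were 1 and 494 at a minimum FPKM of 0.1, 0 and 0 with no filter on low values (with 4138 genes under an unadjusted p of 0.05), 1 and 359 after quantile normalization, 1 and 3 with small RNA genes kept, 2870 and 2748 with array weights, 423 and 1330 with all 12 libraries in the fit, and 0 and 64 with protein-coding genes only. Array weights gave culture 2 a weight of 0.191, against 1.19 and 4.38. Leaving out a culture gave 82 (culture 1), 573 (culture 2) and 167 (culture 3) higher and 703, 1511 and 873 lower, and leaving out polysomal replicate 2 alone gave 4 and 347. Without the pairing of cultures as a replicate block 4 rose and 449 fell, and the difference between vectors stayed at 0 calls. That difference had 3 higher and 2 lower calls with small RNA genes kept and 9 and 56 with array weights. The cause was not tested in any of these.

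List medians also moved. Over the fits that left out a culture or polysomal replicate 2 they ran from -0.21 to 0.027 for oxidative phosphorylation (0.020 without polysomal replicate 2), from -0.10 to -0.051 for iron-responsive messengers, from -0.032 to 0.076 for mitotic genes and from 0.050 to 0.10 for sterol genes. A pseudocount of 0.1 gave -0.31 for nuclear noncoding RNAs, -0.33 for intergenic and antisense RNAs and -0.19 for immediate early genes. A minimum FPKM of 1 gave -0.45 and -0.26 for the first pair, and for intergenic and antisense RNAs a minimum of 0.1 gave -0.12, no filter -0.017 and quantile normalization -0.15. Members annotated protein coding had -0.089 for intergenic and antisense RNAs. For nuclear noncoding RNAs the value was 0.061, that of TUG1, and for snoRNA hosts -0.69, that of TAF1D, so these are not medians over many genes. Quantile normalization gave 0.29 for glycolysis, 0.15 for chaperones and 0.25 for the cytoskeleton.

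Some uncalled genes turned sign. With quantile normalization RPL38 was at 0.063, GNB2L1 at 0.20, NACA at 0.0054, EEF2 at 0.11, COX6B1 at 0.15, HIST1H2BK at 0.077, ZNF146 at 0.026, ZNF207 at 0.058 and HSPA8 at 0.15. With array weights HIST1H1C was at -0.081, RPPH1 at -1.20, TERC at -0.031, ZNF146 at 0.054, ZNF207 at 0.034, IDI1 at 0.065 and HSPA8 at 0.023. Over the fits that left out a culture or polysomal replicate 2 the ranges were -0.21 to 0.18 for HIST1H1C, -1.09 to 1.38 for RPPH1, -0.058 to 0.45 for TERC, -0.092 to 0.060 for ZNF146, -0.047 to 0.014 for ZNF207, -0.24 to 0.038 for IDI1, -0.045 to 0.025 for HSPA8, -0.11 to 0.035 for HIST1H2BK, -0.042 to 0.088 for FDPS and -0.015 to 0.14 for LDHB.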

Other observations

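Among the 237 protein-coding genes that fell, 187 were in no list, and the following were picked after their values were seen. CLK1, a kinase of SR splicing factors, was at 40.7, 42.8 and 38.1 FPKM in total and at 25.7, 20.0 and 25.7 in polysomal RNA (-0.75). CCNL1 (-0.73) and CCNL2 (-0.67), cyclins linked to splicing, and RSRP1 (-0.65), an arginine and serine rich protein, also fell, each with 290 codons or more. NOP56, a core protein of snoRNPs, fell in the same test and hosts snoRNAs in its introns.

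Small proteins of several pathways fell as well. COMMD6 was at 29.2, 32.4 and 35.7 FPKM in total and at no more than 15.7 in polysomal RNA (-1.21). LSM10, a subunit of the U7 particle that processes histone messengers, was at -1.09, and POLR2K, a shared polymerase subunit of 67 codons, at -1.01. The chemokine CXCL8 (-1.18) and the metallothionein MT2A (-0.86) had 99 and 73 codons.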
